A study of Homo sapiens with 39 samples.

Results

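The arrays described here came from H209 cells treated with DKFZ-608, sampled at 24 h and at 4 h. They are the 6 of 39 arrays whose titles name H209, DKFZ-608 and those times, 3 at 24 h and 3 at 4 h. The comparison asks which stress transcripts faded and which built up while the cells stayed in the compound. H209 (NCI-H209) is a neuroendocrine small cell lung carcinoma line. DKFZ-608 is, by the series title, a non-covalent inhibitor of thioredoxin reductase 1. It was given at 100 nM, formulated in 6.9 µM cyclodextrin. The comparison groups were H209 cells in cyclodextrin alone at 24 h and 4 h (3 arrays each), and H838 (NCI-H838) lung adenocarcinoma cells in DKFZ-608 at 24 h and 4 h (5 arrays). The study hybridised RNA amplified to labelled cRNA to Illumina bead arrays, and also held 0 h vehicle arrays and 8 h arrays. The labels do not say whether replicates were separate cultures, so p-values measure only the spread between arrays.

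Thioredoxin reductase passes electrons from NADPH to thioredoxin, which keeps protein thiols reduced. Cells with oxidised or modified thiols are known to switch on several transcription programmes: HSF1 drives heat shock chaperones, NRF2 drives antioxidant enzymes, ATF4 drives the integrated stress response, and MTF1 drives metallothioneins when zinc is set free. Immediate early genes such as EGR1 are known for brief induction, whereas antioxidant enzymes and chaperones can accumulate for longer.

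Replicate 3 of the DKFZ-608 24 h group stood apart from its group. Over the 121 genes that differed between DKFZ-608 and vehicle at 4 h, it lay 0.973 and 1.00 log2 units (root mean square) from DKFZ-608 24 h replicates 1 and 2, and 0.188 and 0.161 from vehicle 24 h replicates 1 and 2. Vehicle 24 h replicate 3, whose title says 24 h and whose time field says 8 h, was the reverse: it lay 0.260 and 0.213 from DKFZ-608 24 h replicates 1 and 2, and 1.12 and 1.07 from the other vehicle 24 h arrays. The 8 h replicate 2 arrays also went against their labels. HSPA6 was at 6.68 in DKFZ-608 8 h replicate 2, against 11.93 in vehicle 8 h replicate 2. No array was moved to another group. Counts and leading genes are given with all 39 arrays as labelled and with these 4 arrays left out (35 arrays, 2 DKFZ-608 arrays at 24 h against 3 at 4 h). Where a single value is given, it is from the 35 arrays. The 4 arrays were left out for their own expression, which raises the 24 h mean of any gene that DKFZ-608 holds up, so p-values of the 35-array fit are not independent evidence. This bears most on DKFZ-608 against vehicle at 24 h. There limma called 0 of 18555 genes with all 39 arrays and 308 without the 4.

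The H209 label held against its markers. Of the 6 neuroendocrine markers measured, 5 were above a log2 intensity of 8 in all 6 arrays, from SYP (synaptophysin, median 8.25) to GRP (gastrin-releasing peptide, median 13.58), and NCAM1 lay between 7.42 and 8.22. Of 11 fibroblast, leukocyte and endothelial markers, 9 stayed under 7 in all 6 arrays, where the median of the whole table is 6.55. The exceptions were CD68, a lysosomal protein, at 9.61 to 10.43, and VWF, which reached 7.09. Median intensity per array ran from 92.8 to 94 over the 6 arrays. Values below are log2 intensities. A difference between them is relative to the array's other probes, and fewer cells carrying a transcript cannot be told apart from less of it per cell.

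The 4 promoters shown here belong to 1 member each of 4 programmes: HSPA6 of heat shock, MT1X of metallothioneins, EGR1 of immediate early genes and CHAC1 of the ATF4 response. Their own time courses, given below, do not stand for the whole programme. Most heat shock and immediate early genes did not pass the test between the times. Each is the 250 bases upstream of the RefSeq start on GRCh38.p14, plus strand, and capitals mark the named motif. HSPA6 lies at chr1:161524290-161524539, and its capitals mark a heat shock element, searched as 3 alternating GAA and TTC units spaced 2 bases apart on either strand, from base -74 to -62. MT1X lies at chr16:56682220-56682469, with 4 metal response element cores (TGCACNC or TGCGCNC, either strand). EGR1 lies at chr5:138465229-138465478, with 2 CArG boxes, the serum response factor motif. CHAC1 lies at chr15:40953221-40953470, with 1 CARE motif (TGATGNAA, here on the minus strand) from base -209 to -202, which ATF4 binds together with C/EBP partners.
HSPA6: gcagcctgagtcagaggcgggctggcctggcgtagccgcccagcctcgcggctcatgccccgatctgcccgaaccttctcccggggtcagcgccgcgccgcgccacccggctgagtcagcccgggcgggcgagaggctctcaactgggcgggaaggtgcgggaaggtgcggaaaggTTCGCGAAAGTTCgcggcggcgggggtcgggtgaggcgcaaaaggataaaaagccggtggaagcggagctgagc
MT1X: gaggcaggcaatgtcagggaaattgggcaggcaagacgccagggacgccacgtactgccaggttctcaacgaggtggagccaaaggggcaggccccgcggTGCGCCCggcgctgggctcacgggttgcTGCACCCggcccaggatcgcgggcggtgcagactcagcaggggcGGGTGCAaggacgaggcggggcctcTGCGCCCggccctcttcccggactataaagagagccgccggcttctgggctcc
EGR1: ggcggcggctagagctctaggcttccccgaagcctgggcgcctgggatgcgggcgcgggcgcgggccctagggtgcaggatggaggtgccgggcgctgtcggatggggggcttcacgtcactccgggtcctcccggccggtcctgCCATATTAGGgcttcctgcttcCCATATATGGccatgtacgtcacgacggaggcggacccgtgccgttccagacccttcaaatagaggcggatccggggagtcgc
CHAC1: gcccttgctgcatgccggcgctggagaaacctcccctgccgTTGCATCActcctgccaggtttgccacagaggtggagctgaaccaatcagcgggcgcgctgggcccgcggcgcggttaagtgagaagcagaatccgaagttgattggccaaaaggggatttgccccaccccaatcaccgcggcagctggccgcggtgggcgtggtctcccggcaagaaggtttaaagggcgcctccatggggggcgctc
In the 35-array fit, the heat shock element occurred in 2 of 80 risers with a RefSeq promoter (2.5%), in 0 of 126 fallers, and in 0.334% of the 14077 tested genes with one. The metal response core was in 27.5% of the risers, 37.3% of the fallers and 29.9% of all tested genes. The antioxidant response core TGACNNNGC was in 21.2%, 15.1% and 11.8% in that order, the CARE motif in 1.25%, 3.97% and 2.1%, and the CArG box in 0, 2.38% and 1.07%. A match is a description of the letters and not a shown binding site.

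Between 24 h and 4 h of DKFZ-608, without the 4 arrays, 7 of 34 immediate early genes, 10 of 32 ATF4 genes and 4 of 16 metallothionein and zinc genes fell, and 7 of 34 NRF2 targets rose. In the other direction, 1 immediate early gene and 3 ATF4 genes rose, and 1 NRF2 target fell. With all arrays 4 immediate early genes, 7 ATF4 genes and 0 metallothionein genes fell, and 0 NRF2 targets rose. The lists were chosen with earlier results of these data known, so their counts are not independent evidence. With all 39 arrays, limma called 63 of 18555 genes (0.34%) at an adjusted p under 0.05, of which 14 rose (0.0755%) and 49 fell (0.264%). With the replicate number as a block, the 39-array fit called 141, of which 47 rose and 94 fell. Without the 4 arrays, 288 genes (1.55%) passed, of which 121 rose (0.652%) and 167 fell (0.9%). The block gave 195 risers and 232 fallers in this fit. With 24 h replicate 3 alone left out, 103 genes passed. Both fits shared 46 of the fallers and all 14 risers of the 39-array fit. In 24 h replicate 3, 106 of the 121 risers were below both other 24 h arrays, and so were 48 of the 167 fallers, while 103 fallers were above both.

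EGR1, a zinc finger transcription factor of the immediate early class, was at 7.12, 7.15 and 6.77 in DKFZ-608 24 h replicates 1 to 3, against 8.18, 8.54 and 8.70 at 4 h. All 3 arrays at 24 h were below all 3 at 4 h. The fall was 2.54-fold without the 4 arrays (log2 change -1.34, SE 0.11, adjusted p 2.68e-09) and passed with all arrays too (-1.46, SE 0.18, adjusted p 1.96e-05). In vehicle cells EGR1 was at 6.96 and 6.87 at 24 h (replicates 1 and 2), against 6.93, 6.89 and 6.75 at 4 h. The treated change differed from the vehicle change by -1.40 (SE 0.16, adjusted p 2.64e-06). At 24 h EGR1 was 0.22 above vehicle (SE 0.12, adjusted p 0.63), and at 4 h 1.62 above (SE 0.10, adjusted p 1.62e-13).

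**Figure D1:**
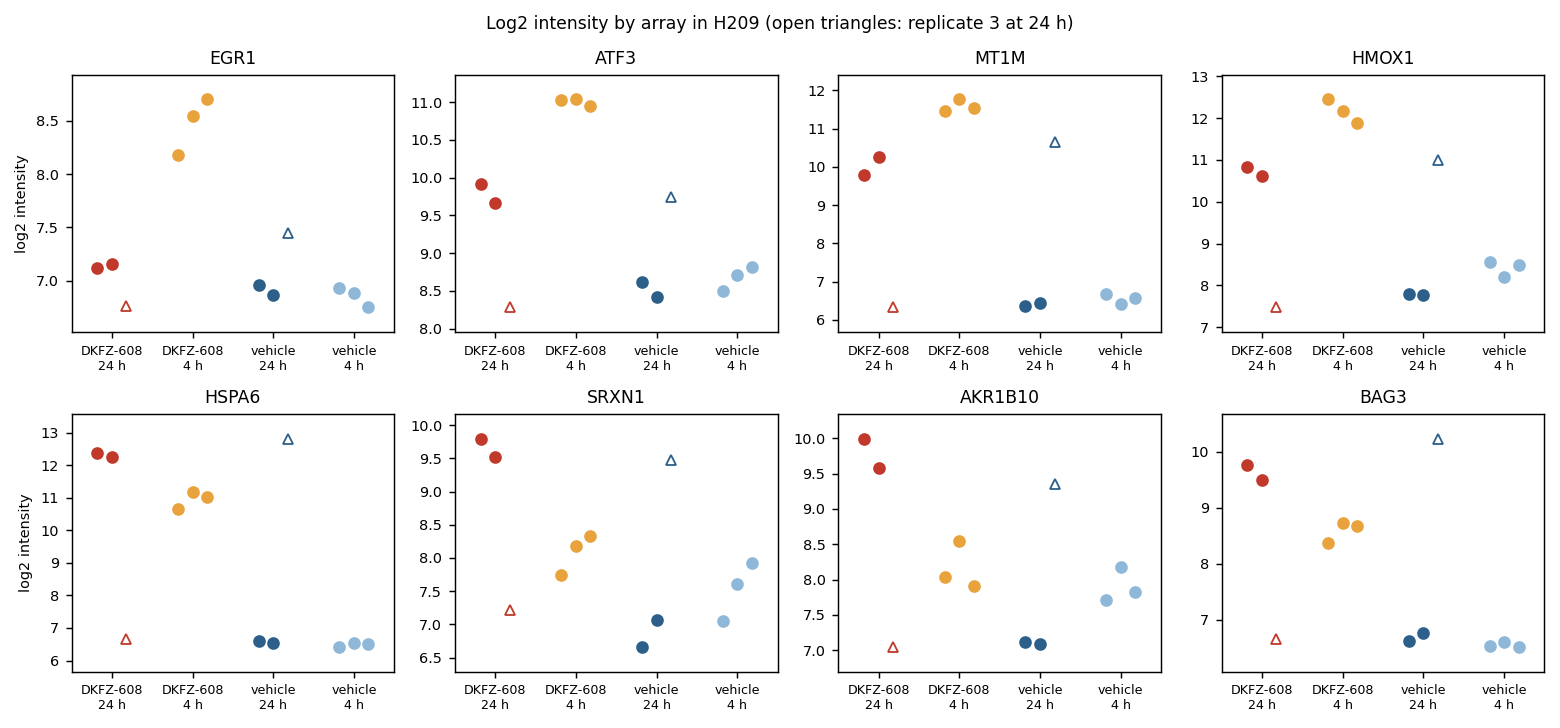
Log2 intensity of 8 genes in each H209 array, grouped as DKFZ-608 24 h, DKFZ-608 4 h, vehicle 24 h and vehicle 4 h (3 arrays each), with replicate 3 at 24 h as open triangles. EGR1, ATF3, MT1M and HMOX1 are lower at 24 h than at 4 h of DKFZ-608, HSPA6, SRXN1, AKR1B10 and BAG3 are higher in replicates 1 and 2, and the DKFZ-608 triangle lies below replicates 1 and 2 at 24 h in all 8 panels.

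Among 34 measured immediate early and feedback genes, 7 fell (0.9% of all genes did) and 1 rose (0.652%) without the 4 arrays. With all arrays 4 fell (0.264%). The list's median change was -0.08 without the 4 arrays, against -0.00 for all genes. RGS16, which shortens G protein signals, fell by 0.78 (SE 0.11, adjusted p 3.1e-05), with 7.58, 7.27 and 7.27 at 24 h against 8.10, 8.21 and 8.32 at 4 h. MXD1, a MYC antagonist, fell by 0.73 (SE 0.08, adjusted p 3.8e-07). Both fell in both fits, and their 3 arrays at 24 h lay below all 3 at 4 h. FOS, the partner of JUN in the AP-1 factor, changed by less: it was at 8.12, 8.19 and 6.59 at 24 h, against 8.22, 8.80 and 8.77 at 4 h. Its fall of 0.44 (SE 0.12, adjusted p 0.0478) was lost without 24 h replicate 1 or 2 or 4 h replicate 2 or 3 (adjusted p up to 0.356), and FOS was still 1.58 above vehicle at 24 h (SE 0.13, adjusted p 2.08e-10). With all arrays FOS averaged 7.64 in DKFZ-608 and 7.33 in vehicle at 24 h, not past the test. IER5, a coactivator of HSF1, was the single riser of the list, at 8.78, 8.72 and 7.19 at 24 h against 7.50, 7.73 and 7.69 at 4 h (log2 change 1.11, SE 0.11, adjusted p 3.64e-08). With all arrays IER5 changed by 0.59 (SE 0.36, adjusted p 0.774).

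The ATF4 integrated stress response list held more fallers than risers. Of 32 genes, 10 fell and 3 rose without the 4 arrays (median -0.28, against -0.00 for all genes), and 7 fell and 0 rose with all arrays (median -0.34). Over all genes 0.9% fell and 0.652% rose without the 4 arrays, and 0.264% fell and 0.0755% rose with all. ATF3, a transcription factor induced by ATF4, was at 9.92, 9.66 and 8.28 at 24 h, against 11.03, 11.04 and 10.95 at 4 h. It fell in both fits, 2.32-fold without the 4 arrays (-1.22, SE 0.14, adjusted p 7.35e-07) and by 1.72 on the log2 scale with all of them (SE 0.36, adjusted p 0.0182). At 24 h it was still 1.27 above vehicle without the 4 arrays (SE 0.15, adjusted p 7.82e-07). With all arrays ATF3 averaged 9.29 in DKFZ-608 and 8.93 in vehicle at 24 h, not past the test. CHAC1, which degrades glutathione, was at 7.18, 6.93 and 6.97 at 24 h, against 8.06, 7.90 and 7.77 at 4 h. Its fall of 0.85 (SE 0.11, adjusted p 4.72e-06) took it to within 0.14 of vehicle at 24 h (SE 0.12, adjusted p 0.812). The groups of CHAC1 did not overlap, with or without replicate 3. SLC38A2, an amino acid transporter, fell by 0.98 (SE 0.15) and STC2, a secreted stress glycoprotein, by 0.86 (SE 0.16), both in both fits. DDIT4, an inhibitor of mTORC1, and VEGFA, the vascular growth factor, also fell in both fits. DDIT4 was at 11.21, 11.18 and 10.28 at 24 h against 11.75, 11.85 and 11.72 at 4 h. The 39-array calls of ATF3, SLC38A2, STC2, DDIT4 and VEGFA were each lost without 4 h replicate 2, among other single arrays, with adjusted p up to 0.114, 0.0614, 0.109, 0.152 and 0.208. ULBP1, a ligand of the natural killer receptor NKG2D, also fell in both fits, at 7.57, 7.41 and 7.19 at 24 h against 8.16, 8.37 and 8.28 at 4 h (-0.78, SE 0.11, adjusted p 2.12e-05).

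DDIT3 (CHOP), the pro-apoptotic factor of this response, was at 9.80, 9.86 and 8.89 at 24 h, against 10.54, 10.24 and 10.20 at 4 h. Its fall of 0.49 (SE 0.11, adjusted p 0.0107) was lost without 24 h replicate 1, 24 h replicate 2 or 4 h replicate 1 (adjusted p up to 0.164), and with all arrays it was -0.81 (SE 0.23, adjusted p 0.139). In the 35-array fit VEGFA lost its call without 24 h replicate 2 or 4 h replicate 2 or 3 (adjusted p up to 0.453), and DDIT4 without 24 h replicate 1 or 2 (adjusted p up to 0.0869). PPP1R15A, the phosphatase subunit that reverses the translation block, went the other way, at 11.58, 11.56 and 9.76 at 24 h against 10.46, 11.07 and 11.17 at 4 h. It rose by 0.67 (SE 0.17, adjusted p 0.0299), a call lost without 24 h replicate 1 or 2 or 4 h replicate 1 (adjusted p up to 0.236). The other risers, named after their values were seen, were GDF15, a stress cytokine (0.74, SE 0.12, adjusted p 0.000174), and NUPR1 (0.56, SE 0.09, adjusted p 0.000137). With all arrays these 3 changed by 0.07, 0.29 and 0.28, none past the test.

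Metallothioneins bind zinc and copper. Of the 16 genes measured on the metallothionein and zinc list, 9 were above vehicle past the test at 24 h and 9 at 4 h without the 4 arrays (1.22% of all genes at each time). With all arrays limma called 0 at 24 h (0 unadjusted; 0% of all genes) and 8 at 4 h (0.528%). Between the times, without the 4 arrays, 4 of the 16 fell and 0 rose, against 0.9% and 0.652% of all genes. The median was -0.04, with 2 upward and 7 downward at an unadjusted p under 0.05. With all arrays 0 of 16 passed limma's adjusted test (1 upward and 6 downward unadjusted, median -0.55). MT1M was at 9.79, 10.26 and 6.33 at 24 h, against 11.46, 11.76 and 11.54 at 4 h. Replicates 1 and 2 lay between the 4 h arrays and vehicle, and replicate 3 was at the vehicle level of 6.36 and 6.44. The fall was 2.95-fold without the 4 arrays (-1.56, SE 0.18, adjusted p 1.71e-06), and -2.79 with all arrays (SE 1.06, adjusted p 0.415). The same -1.56 did not pass with 24 h replicate 3 alone left out (limma adjusted p 0.733). MT1M remained 3.63 above vehicle at 24 h without the 4 arrays (SE 0.20), against 5.03 at 4 h (SE 0.16). With all arrays its 24 h means were 8.79 in DKFZ-608 and 7.81 in vehicle. MT1X was at 12.92, 13.11 and 10.14 at 24 h, against 13.67, 13.77 and 13.75 at 4 h, and fell by 0.72 (SE 0.15, adjusted p 0.00781). MT1F fell by 0.73 (SE 0.15) and MT1H by 0.52 (SE 0.12). With all arrays the changes of MT1X, MT1F and MT1H were -1.68, -1.09 and -1.74 (adjusted p 0.458, 0.37 and 0.638). Leaving out 24 h replicate 1 ended the calls of MT1X, MT1F and MT1H (adjusted p up to 0.199, 0.217 and 0.31), and that of MT1H was also lost without 24 h replicate 2 or 4 h replicate 1 or 2. MT2A, the most widely expressed member, was at 12.71, 13.01 and 9.88 at 24 h against 13.54, 13.58 and 13.43 at 4 h (-0.66, SE 0.19, adjusted p 0.0697), and passed with the replicate block (-0.72, adjusted p 0.000185). These paralogs are near-identical, so their probes may share signal.

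HMOX1, haem oxygenase 1, which turns haem into biliverdin, was at 10.84, 10.62 and 7.47 at 24 h, against 12.45, 12.18 and 11.88 at 4 h. In DKFZ-608 8 h replicate 1 it was at 12.68. The fall was 2.71-fold without the 4 arrays (-1.44, SE 0.16, adjusted p 4.93e-07) and -2.52 with all arrays (SE 0.85, adjusted p 0.303). The same -1.44 did not pass with 24 h replicate 3 alone left out (limma adjusted p 0.661). In vehicle cells HMOX1 was at 7.78 and 7.76 at 24 h against 8.55, 8.19 and 8.49 at 4 h, a change that did not pass (-0.64, SE 0.16, adjusted p 0.221). The treated change minus the vehicle change was -0.80 (SE 0.22, adjusted p 0.176), which did not pass, and HMOX1 was 2.96 above vehicle at 24 h (SE 0.17, adjusted p 1.3e-13). That p-value follows the removal of the 24 h arrays that went against their labels. With all arrays HMOX1 averaged 9.64 in DKFZ-608 and 8.85 in vehicle at 24 h, not past the test.

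**Figure D2:**
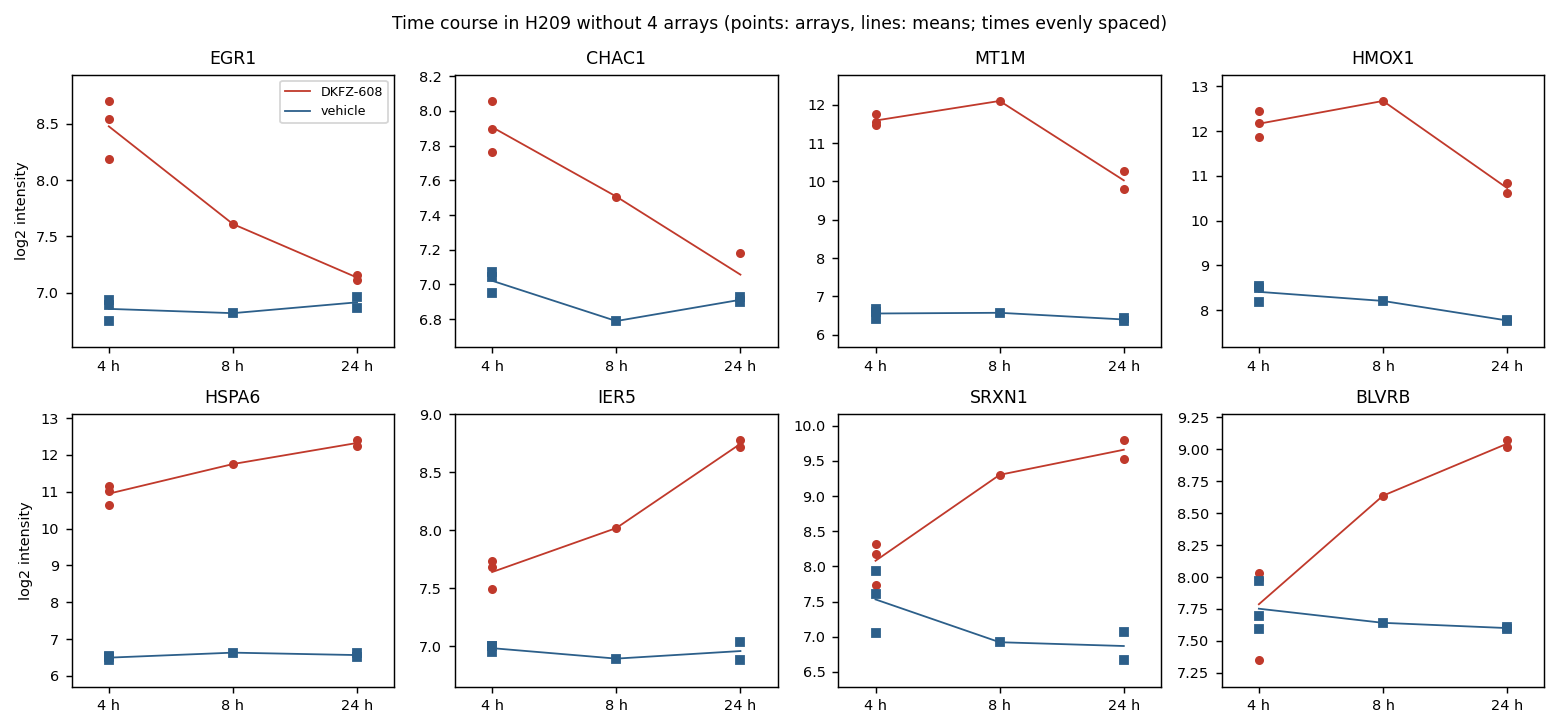
Log2 intensity at 4, 8 and 24 h (evenly spaced) for 8 genes in H209 cells in DKFZ-608 (circles) and vehicle (squares) without the 4 arrays, with a point per array and lines through means (3, 1 and 2 arrays). EGR1 and CHAC1 decline from 4 h, MT1M and HMOX1 are highest in the 8 h array at 12.10 and 12.68, and HSPA6, IER5, SRXN1 and BLVRB are highest at 24 h.

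Heat shock genes differed among themselves: without the 4 arrays a few rose, HSPA1L fell and most did not pass. HSPA6, a strictly stress-inducible HSP70, was at 12.40, 12.25 and 6.67 at 24 h, against 10.65, 11.17 and 11.03 at 4 h. Replicates 1 and 2 were above all 4 h arrays, and replicate 3 was at the vehicle level of 6.61 and 6.52. Without the 4 arrays it rose 2.6-fold (1.38, SE 0.13, adjusted p 3.18e-08). With 24 h replicate 3 alone left out the change was also 1.38, but it did not pass (limma adjusted p at least 0.819). With all arrays the sign turned (-0.51, SE 1.25, adjusted p 0.986), and the groups overlap. A second HSPA6 probe gave 0.87 without the 4 arrays. HSPA7, a pseudogene nearly identical to HSPA6, gave 1.58 (SE 0.12, adjusted p 8.65e-10), and its probe may read HSPA6 transcripts. In vehicle 24 h replicate 3, HSPA6 was at 12.82.

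BAG3, the co-chaperone that directs HSP70 clients to autophagy, was at 9.75, 9.49 and 6.66 at 24 h, against 8.36, 8.72 and 8.67 at 4 h. It rose by 1.04 without the 4 arrays (SE 0.14, adjusted p 1.45e-05) and changed by 0.05 with all of them (SE 0.71, adjusted p 0.998). The same 1.04 did not pass with 24 h replicate 3 alone left out (limma adjusted p at least 0.712). ZFAND2A (AIRAP), a proteasome-associated stress protein, rose by 1.01 (SE 0.14, adjusted p 3.04e-05), with 11.86, 11.80 and 9.71 at 24 h against 10.55, 10.93 and 11.00 at 4 h. With all arrays ZFAND2A changed by 0.30 (SE 0.52, adjusted p 0.981). SERPINH1, the collagen chaperone HSP47, rose by 0.67 (SE 0.14, adjusted p 0.00688), a call lost without either 24 h replicate 1 or 2 or 4 h replicate 3 (adjusted p up to 0.126), and 0.12 with all arrays (adjusted p 0.989). For BAG3 and ZFAND2A, replicates 1 and 2 exceeded all 4 h arrays and replicate 3 was at or near vehicle.

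HSPA1A, the main inducible HSP70, did not pass: it was at 13.30, 13.33 and 10.90 at 24 h, against 13.11, 13.46 and 13.46 at 4 h (-0.03, SE 0.16, adjusted p 0.982). DNAJB1, its HSP40 partner, was at 10.78, 11.02 and 8.33 at 24 h, against 10.70, 10.73 and 10.68 at 4 h (0.19, SE 0.15, adjusted p 0.728). Both were well above vehicle at 24 h without the 4 arrays, by 2.52 (SE 0.17) and 2.60 (SE 0.16). With all arrays the 24 h means of HSPA1A were 12.51 in DKFZ-608 and 11.69 in vehicle. Those of DNAJB1 were 10.045 and 9.31, and neither difference passed. The changes between 4 and 24 h of DKFZ-608 were -0.83 and -0.66 with all arrays, neither past the test. Over the whole families, 1 of 13 HSP70 and HSP110 genes rose and 1 fell without the 4 arrays (HSPA6, and HSPA1L by 0.41), 1 of 20 co-chaperones rose, and 1 of 20 HSP90, chaperonin and small HSP genes rose, with medians of -0.10, -0.02 and -0.09. Over all genes 0.652% rose and 0.9% fell. With all arrays limma called 0 genes in each of the 3 lists (2 downward, 0 and 2 downward at an unadjusted p under 0.05). The HSPA1L call was lost without 24 h replicate 2 or 4 h replicate 2 or 3 (adjusted p up to 0.433). HSPA5 (BiP), the chaperone of the endoplasmic reticulum, was at 8.71, 8.67 and 8.82 at 24 h against 8.91, 8.85 and 8.96 at 4 h (-0.22, SE 0.10, adjusted p 0.432).

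Without the 4 arrays, some NRF2 targets rose. Of 34 measured genes, 7 rose and 1 (HMOX1) fell without the 4 arrays, 30 had positive changes, and the median was 0.25, against -0.00 over all genes. Over all genes 0.652% rose and 0.9% fell. With all arrays 0 of 34 passed limma's test (2 upward and 1 downward unadjusted, 23 positive and 11 negative changes, median 0.09). In vehicle cells the median of the same list was -0.20 without the 4 arrays, with 2 positive changes. With all arrays the vehicle median was 0.03, with 18 positive and 16 negative changes. Without the 4 arrays 27 of 34 were above vehicle past the test at 24 h (1.22% of all genes were) and 9 at 4 h (likewise 1.22%). With all arrays 0 were at 24 h (0% of all genes; 4 of the 34 upward at an unadjusted p under 0.05) and 1 at 4 h (0.528%). The 24 h arrays left out were chosen for their expression, so the count at 24 h rests on that choice. SRXN1, sulfiredoxin, which repairs peroxiredoxins, was at 9.79, 9.52 and 7.22 at 24 h, against 7.74, 8.18 and 8.32 at 4 h. Replicates 1 and 2 were above the 4 h arrays and replicate 3 below them. It rose 2.99-fold without the 4 arrays (1.58, SE 0.21, adjusted p 1.51e-05) and changed by 0.77 with all (SE 0.56, adjusted p 0.855). The same 1.58 did not pass with 24 h replicate 3 alone left out (limma adjusted p at least 0.232).

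AKR1B10, an aldo-keto reductase, was at 9.99, 9.57 and 7.05 at 24 h, against 8.04, 8.54 and 7.91 at 4 h, and rose 3.07-fold without the 4 arrays (1.62, SE 0.18, adjusted p 3.8e-07). With all arrays AKR1B10 changed by 0.71 (SE 0.50, adjusted p 0.844). Vehicle cells were at 7.12 and 7.09 at 24 h (replicates 1 and 2), against 7.71, 8.18 and 7.82 at 4 h, and the treated change exceeded the vehicle change by 2.42 (SE 0.25, adjusted p 7.92e-07). With all arrays that difference was 0.75 (SE 0.71), which did not pass. BLVRB, biliverdin reductase B, which acts after HMOX1, was at 9.07, 9.02 and 8.16 at 24 h against 7.35, 8.03 and 7.98 at 4 h, and rose 2.39-fold without the 4 arrays (1.26, SE 0.18, adjusted p 3.93e-05), against 0.96 with all (SE 0.31, adjusted p 0.24). BLVRB replicate 3 was below replicates 1 and 2 but above all 4 h arrays. GPX3, a secreted glutathione peroxidase, rose by 0.85 (SE 0.12, adjusted p 2.35e-05). TXN, thioredoxin itself, rose by 0.40 (SE 0.09, adjusted p 0.018), at 13.34, 13.16 and 12.61 at 24 h against 12.98, 12.82 and 12.76 at 4 h. SLC7A11, the cystine transporter, rose by 0.44 (SE 0.09, adjusted p 0.00578), and PGD of the pentose phosphate pathway by 0.72 (SE 0.17, adjusted p 0.0184), PGD being named after its values were seen. With all arrays GPX3, TXN, SLC7A11 and PGD changed by 0.57, 0.19, 0.19 and 0.37, none past the test. The TXN and SLC7A11 calls were lost without 24 h replicate 1, and that of TXN also without 4 h replicate 2 or 3 (adjusted p up to 0.366 and 0.361).

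GCLM, TXNRD1 and NQO1, all known NRF2 targets, did not pass. GCLM, a subunit of the enzyme that starts glutathione synthesis, was at 9.99, 9.78 and 8.22 at 24 h, against 9.96, 9.92 and 9.68 at 4 h (0.03, SE 0.13, adjusted p 0.972), and its second probe gave -0.48. TXNRD1, the compound's target by the series title, was at 11.89, 11.65 and 10.22 at 24 h, against 11.67, 11.40 and 11.29 at 4 h (0.31, SE 0.17, adjusted p 0.547). NQO1 was at 11.90, 11.78 and 11.20 at 24 h against 11.30, 11.62 and 11.67 at 4 h (0.31, SE 0.10, adjusted p 0.148), and passed with the replicate block (0.36, adjusted p 0.0282). All 3 were above vehicle at 24 h without the 4 arrays, by 1.55 (SE 0.14), 1.29 (SE 0.19) and 0.87 (SE 0.11). With all arrays none of these differences from vehicle passed. NFE2L2, which encodes NRF2, fell by 0.45 (SE 0.12, adjusted p 0.048), a call lost without 24 h replicate 1 or 2 or 4 h replicate 2 or 3 (adjusted p up to 0.306).

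**Figure D3:**
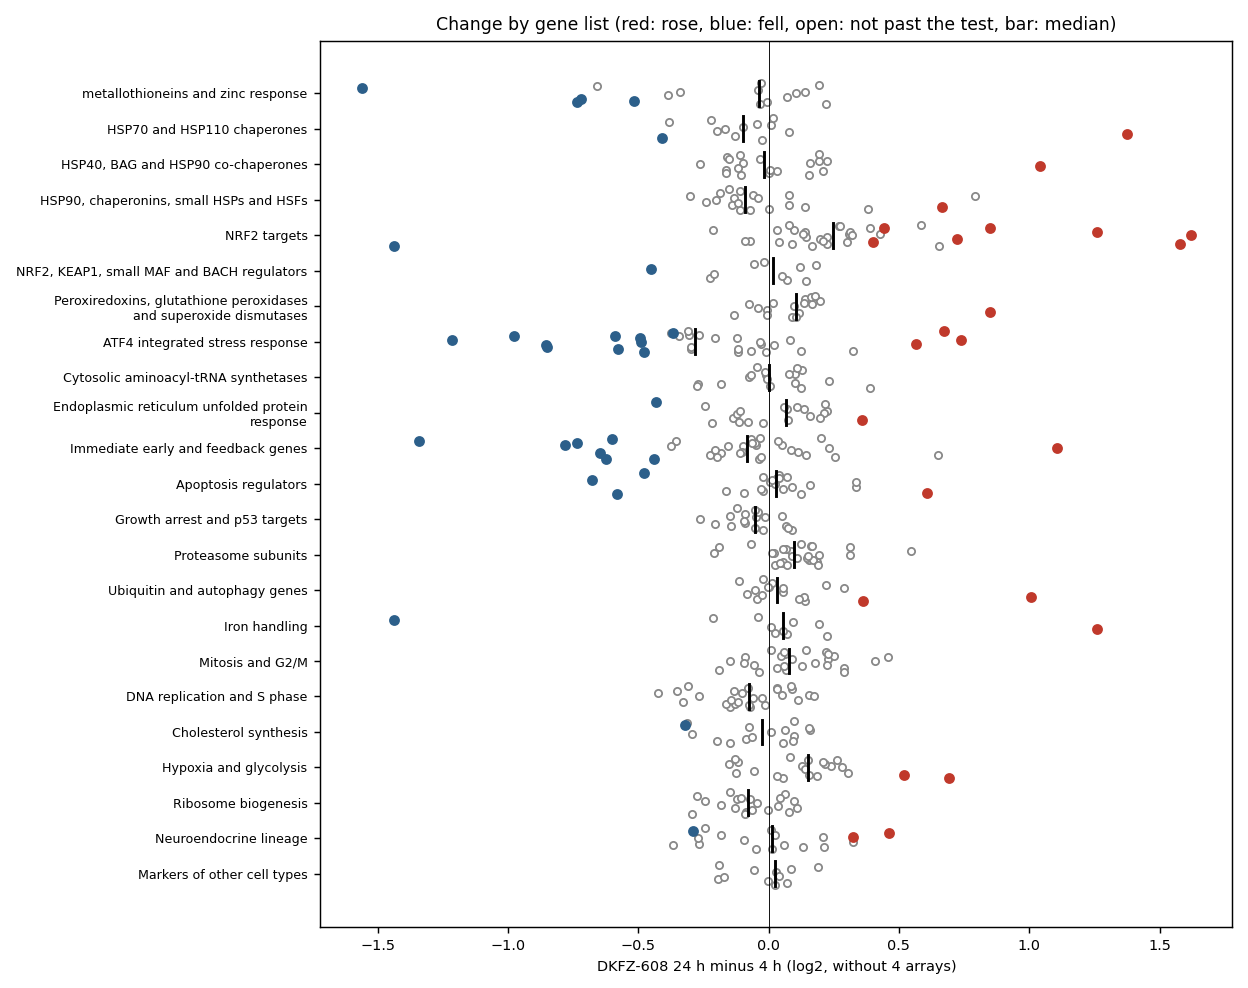
Change between 24 h and 4 h of DKFZ-608 without the 4 arrays (log2, horizontal) for each measured gene of 23 lists (rows), with filled points past the test (red rose, blue fell), open points not past it and a bar at the list median. NRF2 targets sit mostly right of 0 (median 0.25), ATF4 genes mostly left (median -0.28), and the cell-cycle, ribosome and tRNA synthetase lists have no filled point.

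DEFB1, an epithelial defensin peptide, had the largest rise without the 4 arrays, at 10.50, 10.30 and 8.57 at 24 h against 8.998, 8.62 and 8.50 at 4 h (1.69, SE 0.15, adjusted p 1.14e-08). With all arrays it was 1.08 (SE 0.28, adjusted p 0.0903), and it passed with the replicate block (adjusted p 0.0272). Vehicle levels at 24 h, 9.14 and 8.79, were inside the range of the 4 h treated arrays or just above it. TREML3P, a pseudogene of the TREM family, rose by 1.33 (SE 0.10, adjusted p 5.12e-10), but its second probe, near the table's floor, gave -0.00. With all arrays TREML3P changed by 0.84 (SE 0.32, adjusted p 0.429). ADM, adrenomedullin, and NDRG1, both induced in hypoxia, rose by 0.69 (SE 0.11) and 0.52 (SE 0.12), and the 21 hypoxia and glycolysis genes had 2 risers (0.652% of all genes rose), 0 fallers and a median of 0.15 without the 4 arrays. With all arrays limma called 0 of the 21 (0 upward and 1 downward unadjusted, median 0.05), and ADM changed by 0.33 (adjusted p 0.895) and NDRG1 by 0.27 (adjusted p 0.698). The NDRG1 call was lost without 24 h replicate 1 or 2 or 4 h replicate 3 (adjusted p up to 0.236).

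Some genes rose in both fits. SNAR-A1, a small non-coding RNA, was at 12.22, 12.19 and 11.80 at 24 h, against 11.05, 11.31 and 11.54 at 4 h, with no overlap between the times (0.77, SE 0.15, adjusted p 0.0103 with all arrays, and 0.90, SE 0.11, adjusted p 7.15e-06 without the 4). CES1, a carboxylesterase, was at 7.54, 7.71 and 7.09 at 24 h, against 6.78, 6.77 and 6.75 at 4 h, and GSTA2, a glutathione S-transferase, and CRB3, a cell polarity protein, rose with it, by 0.68, 0.44 and 0.47 with all arrays (SE 0.14, 0.09 and 0.09). Without the 4 arrays their dimmer probes gave 0.05 (CES1), 0.30 and 0.17 (GSTA2), and 0.15 and 0.27 (CRB3). TTI2, a co-chaperone for kinases of the PIKK family, was at 9.17, 9.15 and 9.10 at 24 h against 8.77, 8.57 and 8.75 at 4 h (0.44, SE 0.06, adjusted p 0.000114), and its call held in every leave-one-out fit. The 39-array calls of SNAR-A1, CES1, GSTA2 and CRB3 were each lost without 24 h replicate 1, among others (adjusted p up to 0.0999, 0.2, 0.28 and 0.126). SNORD3A, the U3 small nucleolar RNA, passed only without the 4 arrays. It was at 10.59, 10.68 and 10.03 at 24 h against 8.96, 9.67 and 9.94 at 4 h. It rose by 1.11 without the 4 arrays (SE 0.21, adjusted p 0.00302), a call lost without 24 h replicate 2 (adjusted p 0.0738). With all arrays it was 0.91 (SE 0.22, adjusted p 0.0593), which passed with the replicate block (adjusted p 0.0036).

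Some transcripts were below vehicle at 4 h and rose by 24 h. NPTX1, a neuronal pentraxin, was at 10.59, 10.70 and 10.75 at 24 h, against 9.82, 9.91 and 9.89 at 4 h, with all 3 arrays at 24 h above all 3 at 4 h. It rose in both fits (0.77, SE 0.13, adjusted p 0.00036 without the 4 arrays, and 0.80, SE 0.17, adjusted p 0.0212 with all). Other NPTX1 probes, which were dim, gave 0.12 and 0.04 without the 4 arrays. At 4 h NPTX1 had been below vehicle by 0.74 (SE 0.11), and at 24 h the difference was -0.07 (SE 0.14, adjusted p 0.95). PHACTR3 and HPS6, a subunit of the BLOC-2 complex, also rose in both fits, by 0.53 (SE 0.07) and 0.45 (SE 0.10) in the 35-array fit. PHACTR3 had been 0.66 and HPS6 0.68 below vehicle at 4 h. Dimmer PHACTR3 probes rose by 0.07 and 0.35 without the 4 arrays. The HPS6 call was lost without 24 h replicate 1 or 2 (adjusted p up to 0.152). In the 39-array fit the NPTX1 call was lost in all 6 leave-one-out fits (limma adjusted p up to 0.102). That of PHACTR3 was lost without 4 h replicate 2 or 24 h replicate 3 (adjusted p up to 0.104). That of HPS6 was lost without 24 h replicate 3 or any of the 4 h arrays (adjusted p up to 0.112). In these 3 genes replicate 3 was at or above the other 24 h arrays. ISL1, a neuroendocrine transcription factor, rose by 0.32 (SE 0.07, adjusted p 0.0139) but was still below vehicle at 24 h by 0.40 (SE 0.08), and its call was lost without 24 h replicate 1 or 2 or 4 h replicate 2 (adjusted p up to 0.204).

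Fallers outside the stress lists included HEY1, a Notch target repressor, and BAMBI, a decoy receptor for TGF-beta. HEY1 was at 10.04, 10.10 and 9.87 at 24 h, against 10.77, 11.30 and 11.26 at 4 h. Both fell in both fits, by 1.04 (SE 0.12) and 0.95 (SE 0.12) without the 4 arrays. HEY1 has a second, dimmer probe that gave -0.26. PER2, a circadian clock gene, fell by 1.05 without the 4 arrays (SE 0.22, adjusted p 0.00587), a call lost without 24 h replicate 1 (adjusted p 0.17). With all arrays it was -0.87 (adjusted p 0.0772), which passed with the replicate block (adjusted p 0.000117). Its vehicle change was -0.44 (SE 0.22, adjusted p 0.928). The other PER2 probes, which were dim, gave 0.09 and -0.01 without the 4 arrays.

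The smooth muscle actins fell in both treated and vehicle cells. ACTG2 was at 9.29, 9.02 and 8.73 at 24 h of DKFZ-608, against 10.43, 10.48 and 10.47 at 4 h, and fell in both fits (-1.30, SE 0.11, adjusted p 2.86e-09 without the 4 arrays). In vehicle it fell more, to 8.65 and 8.42 at 24 h, against 10.46, 10.54 and 10.59 at 4 h (-1.99, SE 0.11, adjusted p 1.52e-13). The treated change was 0.69 above the vehicle change (SE 0.15, adjusted p 0.0302). ACTA2 showed the same order, -0.72 in treated and -1.88 in vehicle cells (SE 0.12 each), with a difference of 1.16 (SE 0.18, adjusted p 0.000254). The treated ACTA2 call was lost without 24 h replicate 2 in the 35-array fit (adjusted p 0.0738) and without 4 h replicate 2 or 24 h replicate 3 in the 39-array fit (adjusted p up to 0.104).

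Few genes changed in vehicle between the same times: 10 (0.0539%) without the 4 arrays and 2 (0.0108%) with all arrays. Tested directly, the treated change differed from the vehicle change in 73 genes without the 4 arrays (0.393%), 47 upward and 26 downward, and in 6 (0.0323%), all downward, with all arrays. Among the 35-array calls, 36 of 121 risers and 22 of 167 fallers also passed the test against the vehicle change. Risers that passed it included HSPA6 (1.31, SE 0.18), SRXN1 (2.24, SE 0.30), BAG3 (0.90, SE 0.19), DEFB1 (1.55, SE 0.21) and IER5 (1.13, SE 0.15). Fallers that passed it included MT1M (-1.40, SE 0.26), ATF3 (-1.06, SE 0.19) and CHAC1 (-0.74, SE 0.15). With all arrays the difference was -2.66 for HSPA6 and -1.27 for BAG3, so their signs turned. It was 0.56 for SRXN1, 0.63 for DEFB1, -4.06 for MT1M and -1.97 for ATF3. None of these all-array differences passed. Set against the same interval in H838 cells, 137 genes changed differently without the 4 arrays (0.738%) and 20 with all arrays (0.108%).

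**Figure D4:**
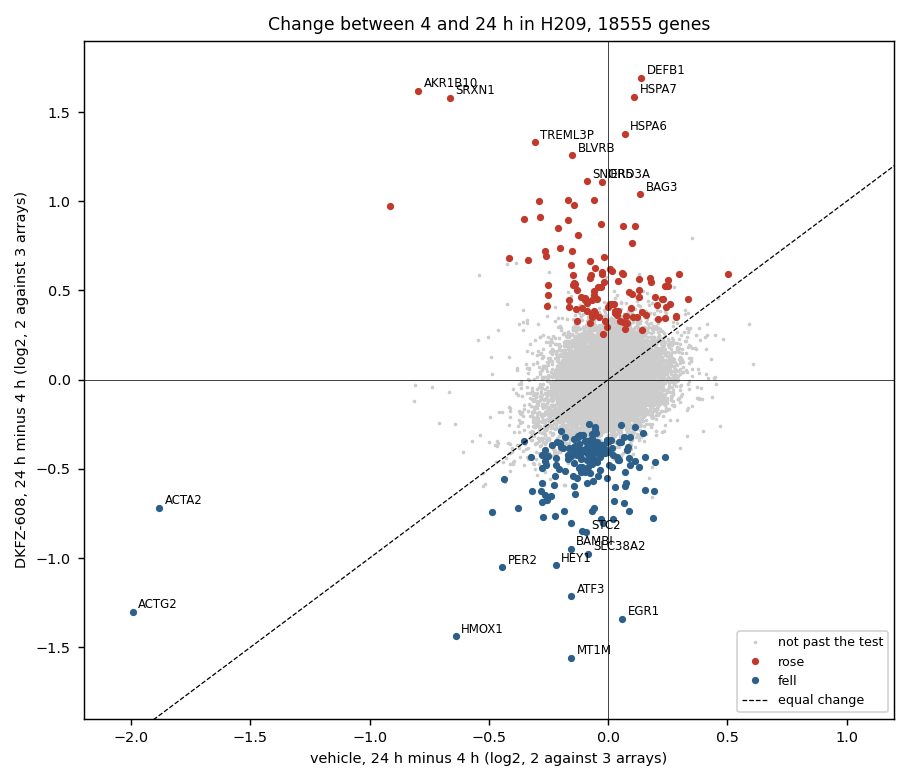
Change between 24 h and 4 h in DKFZ-608 (vertical) against the change in vehicle (horizontal), log2, for 18555 genes without the 4 arrays, each 2 arrays against 3; coloured points passed the test in DKFZ-608 and the dashed line marks equal change. HSPA6, DEFB1 and EGR1 lie near 0 in vehicle, whereas ACTG2 and ACTA2 lie far to the left, at -1.99 and -1.88.

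Several programmes held no gene past the test in either fit without the block. Of 26 mitosis genes 0 passed in the 35-array fit (2 upward at an unadjusted p under 0.05), with a treated median of 0.08 and a vehicle median of 0.27. Of 26 DNA replication genes 0 passed (4 downward unadjusted, median -0.08), and of 18 p53 and growth arrest genes 0 (0 unadjusted, median -0.05). The 28 proteasome genes had 0 called and 25 positive changes (5 upward and 1 downward unadjusted, median 0.10). The 18 tRNA synthetases had 0 called (2 each way unadjusted), as had the 20 ribosome biogenesis genes (1 downward unadjusted). With the replicate block MCM5, a replication helicase subunit, passed (-0.45, adjusted p 0.0214), and so did SARS1, a tRNA synthetase (0.38, adjusted p 0.0287). Of 22 apoptosis regulators 3 fell (0.9% of all genes fell) and 1 rose (0.652%) without the 4 arrays, and 1 fell and 0 rose with all arrays. MCL1, a pro-survival protein, was at 9.19, 9.31 and 9.19 at 24 h, against 9.84, 9.79 and 10.15 at 4 h. A second, dimmer MCL1 probe gave -0.12 without the 4 arrays. MCL1 fell in both fits (-0.68, SE 0.14 without the 4 arrays), and lost its 35-array call without 24 h replicate 1 (adjusted p 0.126) and its 39-array call without 4 h replicate 3 (adjusted p 0.0654). PMAIP1 (NOXA), an MCL1 antagonist, fell by 0.58 (SE 0.14), a call lost without 24 h replicate 1 or 2 or 4 h replicate 2 or 3 (adjusted p up to 0.299).

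**Figure D5:**
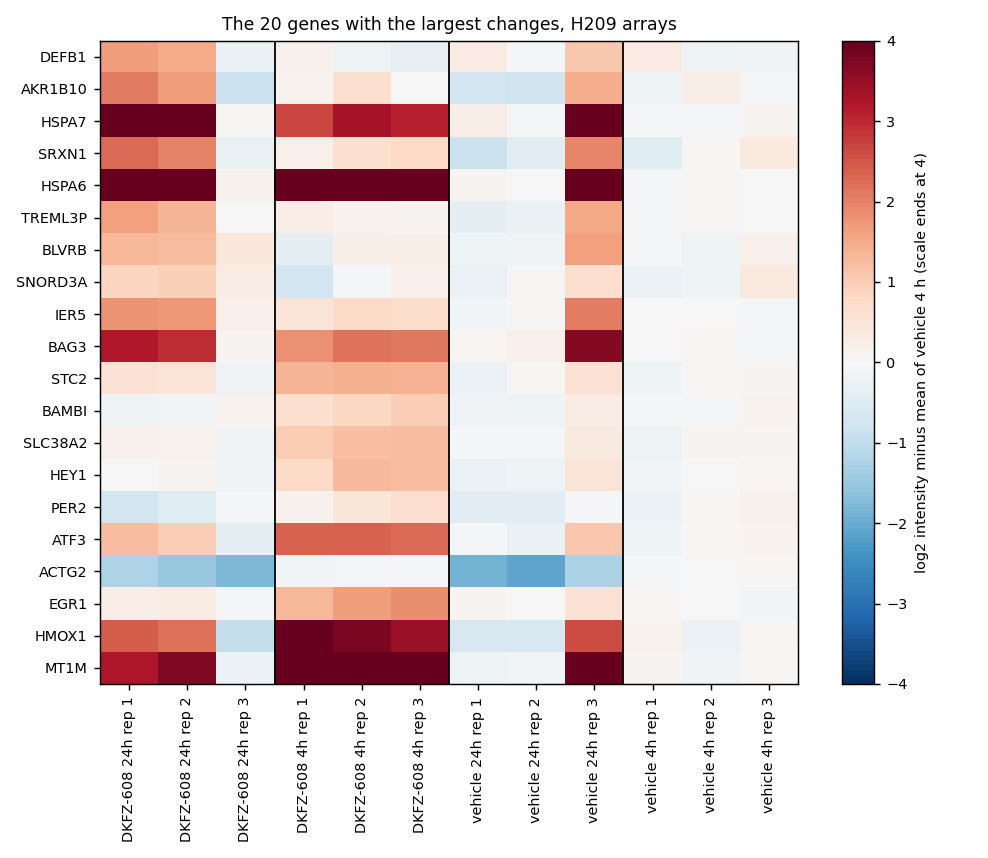
Log2 intensity minus the mean of the vehicle 4 h arrays (colour, scale ending at 4) for the 10 largest rises and 10 largest falls without the 4 arrays (rows) in 12 H209 arrays (columns, 3 per group: DKFZ-608 24 h, DKFZ-608 4 h, vehicle 24 h, vehicle 4 h). DKFZ-608 24 h replicate 3 is pale where replicates 1 and 2 are red, and vehicle 24 h replicate 3 is red where vehicle replicates 1 and 2 are pale.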

How the data were processed

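The deposited table holds linear microarray intensity per probe for 39 arrays, and the authors' normalization is not given in the sources used here; array medians lay between 92.6 and 94.2, so the values were compared as deposited. Intensities of 48107 probes were floored at the table's percentile 1 (75.78) and turned into log2 values. Of 48107 probes, 20 held empty cells (47 cells). Probes above the table median on at least 2 arrays were kept (42925), of which 26943 carried 1 gene symbol in the platform annotation. The brightest probe stood for each of 18555 genes (5878 had several probes). Background is not subtracted to 0, so changes of dim genes are understated. The number of arrays limits the precision, and slide and scan are not given in the sources used here. Group means of 14 groups were fitted with limma 3.58.1 in R 4.3.3 (lmFit, eBayes), with Benjamini-Hochberg adjustment over all genes and a threshold of 0.05. Results are given for all 39 arrays and without 4 arrays. Same-numbered DKFZ-608 24 h and 4 h arrays deviated from their group means together (r 0.291, 0.114 and 0.385 for replicates 1 to 3). Without replicate 3, r was 0.116 for replicates 1 and 2. Arrays with unlike numbers were not compared, so the pairing is an assumption. The main fits did not use it, and block values are printed where they change a call. The members and the gene lists were chosen with earlier results of these data known. Named genes are 20 stress genes, the 10 largest rises and 10 largest falls past the test in each fit, and up to 4 members of each of 23 lists past the test in either fit, or the member with the largest change where none passed. Promoters come from RefSeq on GRCh38.p14. The fit was tested on simulated data. Alternatives were other floors, filters, normalizations, probe rules, array sets, the block and leaving out each array.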

Additional observations from a re-analysis of the deposited data

Results flagged for a closer look

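For 21 of 33 genes, the change between 24 h and 4 h of DKFZ-608 differed between H209 and H838 cells. This was a test of the difference itself in the limma fit without the 4 arrays. Over all tested genes 137 differed (0.738%). The 33 are the genes always named and those with the largest H209 changes in the same fit. That choice favours a high count, so 21 of 33 cannot be set against the share over all genes. H838 had 2 arrays at 24 h. The differences are the H209 change minus the H838 change in log2 units. Among heat shock and other stress genes they were 1.56 for HSPA6 (adjusted p 4.64e-06), 1.585 for HSPA7 (adjusted p 2.34e-06), 1.21 for BAG3 (adjusted p 0.000678), 1.28 for IER5 (adjusted p 4.64e-06) and 1.31 for PPP1R15A (adjusted p 0.00226). HSPA6 changed by 1.38 in H209 and -0.19 in H838. With all arrays HSPA6 changed by -0.51 in H209, below the H838 change, so the sign of its difference turned.

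Among antioxidant genes the differences were 1.72 for SRXN1 (adjusted p 0.00146), 1.61 for AKR1B10 (adjusted p 0.000394), 1.22 for BLVRB (adjusted p 0.0108), 0.65 for NQO1 (adjusted p 0.0207) and 0.53 for SLC7A11 (adjusted p 0.0443). NQO1 did not pass within H209 alone (0.31), and changed by -0.34 in H838. The other positive differences were 1.72 for DEFB1 (adjusted p 1.27e-05) and 1.39 for TREML3P (adjusted p 9.01e-07).

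Negative differences were -1.10 for ATF3 (adjusted p 0.00183), -1.06 for SLC38A2 (adjusted p 0.00677), -0.64 for DDIT3 (adjusted p 0.0397), -1.30 for EGR1 (adjusted p 7.15e-06) and -1.285 for HMOX1 (adjusted p 0.00164) among stress genes. EGR1 changed by -1.34 in H209 and -0.04 in H838, and HMOX1 by -1.44 and -0.15 in the same order. The rest were -1.565 for PER2 (adjusted p 0.00626), -1.34 for ACTG2 (adjusted p 4.64e-06), -0.98 for HEY1 (adjusted p 0.00102) and -0.77 for BAMBI (adjusted p 0.0171). PER2 changed by -1.05 in H209 and 0.51 in H838. These differences rest on the fit that left 4 H209 arrays out.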

How the results depend on the processing

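With all arrays, 63 genes passed the test, and between 62 and 76 did under other floors, filters, normalizations and probe rules. The count was 18 with H209 arrays alone, 10 with the 6 DKFZ-608 arrays alone, 141 with the replicate block, and 29 to 103 with single arrays left out. Without the 4 arrays it was 288, and 69 with the 5 DKFZ-608 arrays alone, 103 with only 24 h replicate 3 left out, 63 with all arrays (a setting added after seeing the data), and 116 to 342 with single arrays left out, where a lone 24 h array is assumed to vary like the other groups. The block gave 427. Fewer arrays in the fit leave fewer residual degrees of freedom. Of 63 named genes past the 35-array test, 33 held in every leave-one-out fit and 30 were lost in at least 1.

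With the replicate block, calls gained with all arrays were DEFB1, SNORD3A, PER2, XBP1, APAF1 and MVD, and without the 4 arrays MT2A, NQO1, SARS1 and MCM5. The block ended the 35-array call of GRP (-0.26, adjusted p 0.05) and turned HSPA1A to 0.022 and GCLM to -0.017. It changed no other named call.

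Apart from HSPA6, HSPA7, BAG3, ZFAND2A, PPP1R15A, SERPINH1 and SLC7A11, which passed in the 35-array fit, signs turned only in changes that passed in neither fit. With single arrays left out of the 39, ranges were HSPA6 -1.49 to 1.38, HSPA7 -0.73 to 1.58, BAG3 -0.51 to 1.04, ZFAND2A -0.072 to 1.01, PPP1R15A -0.24 to 0.67, SERPINH1 -0.18 to 0.67, DNAJB1 -1.15 to 0.19, TXNRD1 -0.52 to 0.31, GCLM -0.85 to 0.033, NQO1 -0.040 to 0.31, SLC7A11 -0.017 to 0.44, PSMC4 -0.19 to 0.55, ZMAT3 -0.36 to 0.10, NOP56 -0.29 to 0.080 and CD68 -0.25 to 0.16. With the mean over a gene's probes CD68 gave 0.047 and ZMAT3 0.0012 (all arrays), and GCLM -0.22 and CD68 0.016 (without the 4). In the 35-array fit, leave-one-out ranges were HSPA1A -0.14 to 0.032, GCLM -0.073 to 0.14 and CD68 -0.38 to 0.033. With all arrays in place of 35, the passing rise of HSPA6 became -0.51, DNAJB1 -0.66, GCLM -0.52 and TXNRD1 -0.20. The cause was not tested. Dim probes near the background limit what could be detected.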
